A study of Mus musculus with 12 samples.

Results

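Interferon-induced genes are those that cells switch on after an interferon binds its receptor. A list of 48 such genes was followed here, and 44 of them had at least 1 probe set with a single gene symbol, of 18194 genes with such a probe set on the whole array. Each gene was read at the 1 probe set with the highest mean over the 12 arrays. Isg15, Tgtp1 and Trex1 had only probe sets shared with other symbols, Ifi44 had no entry in the annotation used, and these 4 are not analysed here.

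RNA came from whole lung of male A/J mice that were 8 to 10 weeks old, from 3 animals per group. Phosphate-buffered saline (PBS) took the place of an agent that a group did not receive, and lungs were taken on day 4 after the particles or the PBS given for them. Control mice received PBS alone. OVA mice were sensitized with ovalbumin, an egg white protein that serves as the allergen, at 0.4 mg/kg into the peritoneum on day 0, and received 30 mg/kg into the trachea on day 14. PM mice were naive to ovalbumin and aspirated 50 µl of a suspension of ambient Baltimore particulate matter at 10 mg/ml. OVA/PM mice received both agents. The particles, or the PBS given for them, followed the ovalbumin in the trachea by 3 days. Lungs of OVA mice were thus taken longer after their agent than those of PM mice. Between these groups, agent and time since the agent cannot be told apart. The model is of 1 inbred strain and sex, with a single particle dose.

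Levels are GCRMA values, that is log2 intensities after correction for background and normalization over all arrays, and a difference of 1 stands for a fold of 2 in intensity. The level of 1 probe set cannot be set against that of another. In whole tissue, fewer cells of a type and less RNA per cell cannot be told apart. The number of arrays limits the precision, and the labels give no batch. A probe set entered a test if, in 1 or both of the groups compared, none of the 3 arrays was under 4.93, which is the median over the whole data set and is called the filter level. Where all 3 arrays of the lower group lay under that level, a fold is measured against it and written as "at least". Of 10 lung epithelium markers 10 lay over the filter level in all arrays, with a mean level of 13.1 to 13.2 and the lowest value, 5.65, in Nkx2-1, and 2 of them rose and 4 fell in OVA/PM against Control. OVA/PM replicate 3 stood apart in its spiked hybridization controls BioB and BioC, which read 6.65 and 7.56 there and no more than 4.68 and 3.95 elsewhere.

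It is not settled which of the 2 single exposures the names OVA and PM stand for in these data. A published table gives 28 fold changes for OVA and PM. The ratios computed from these arrays match 28 of them if the names are swapped and 4 if they are not. Those 4 also match with the names swapped, so they do not tell the 2 namings apart. The labels were kept, so that OVA and PM below mean the arrays with that label, and what is said of either exposure depends on it. A swap would not touch OVA/PM or Control.

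Type I interferons signal to a promoter element called the interferon-stimulated response element, where a complex with STAT2 and IRF9 binds, and interferon gamma signals to another, the gamma-activated site. Products of the Mx, Ifit and Oas families act against viruses: Mx proteins trap viral particles, Ifit proteins bind foreign RNA, and Oas enzymes start the breakdown of RNA. The guanylate-binding proteins (Gbp) and the immunity-related GTPases (IRG) coat and disrupt the vacuoles of intracellular microbes and are known as strong targets of interferon gamma. In lung, epithelium, macrophages and other leukocytes can all respond to interferons.

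Across all 44 genes, mean levels in OVA/PM and in the arrays labelled OVA lay above Control. Among the roles, the GTPases had the largest median difference from Control in the arrays labelled PM, and Mx1 among the antiviral genes differed by 1.18. Against Control, 39 of 44 rose in OVA/PM and 0 fell, where 13.9% of all genes tested rose and 9.73% fell (adjusted p under 0.05 from limma). In the arrays labelled OVA 33 rose and 0 fell, beside 11.2% and 7.58% of all genes tested. In the arrays labelled PM 0 changed in either direction by limma, beside 0.0896% of all genes tested, and 0 by SAM, a permutation-based test. An unadjusted p under 0.05 was reached by 8 of the 39 members tested, all higher, beside 1814 of 22276 probe sets tested. The median difference from Control was 1.64 in OVA/PM, 1.95 under the OVA label and 0.25 under the PM label, against 0.04, 0.03 and 0.02 for all genes. These 3 comparisons share their Control arrays.

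**Figure D1:**
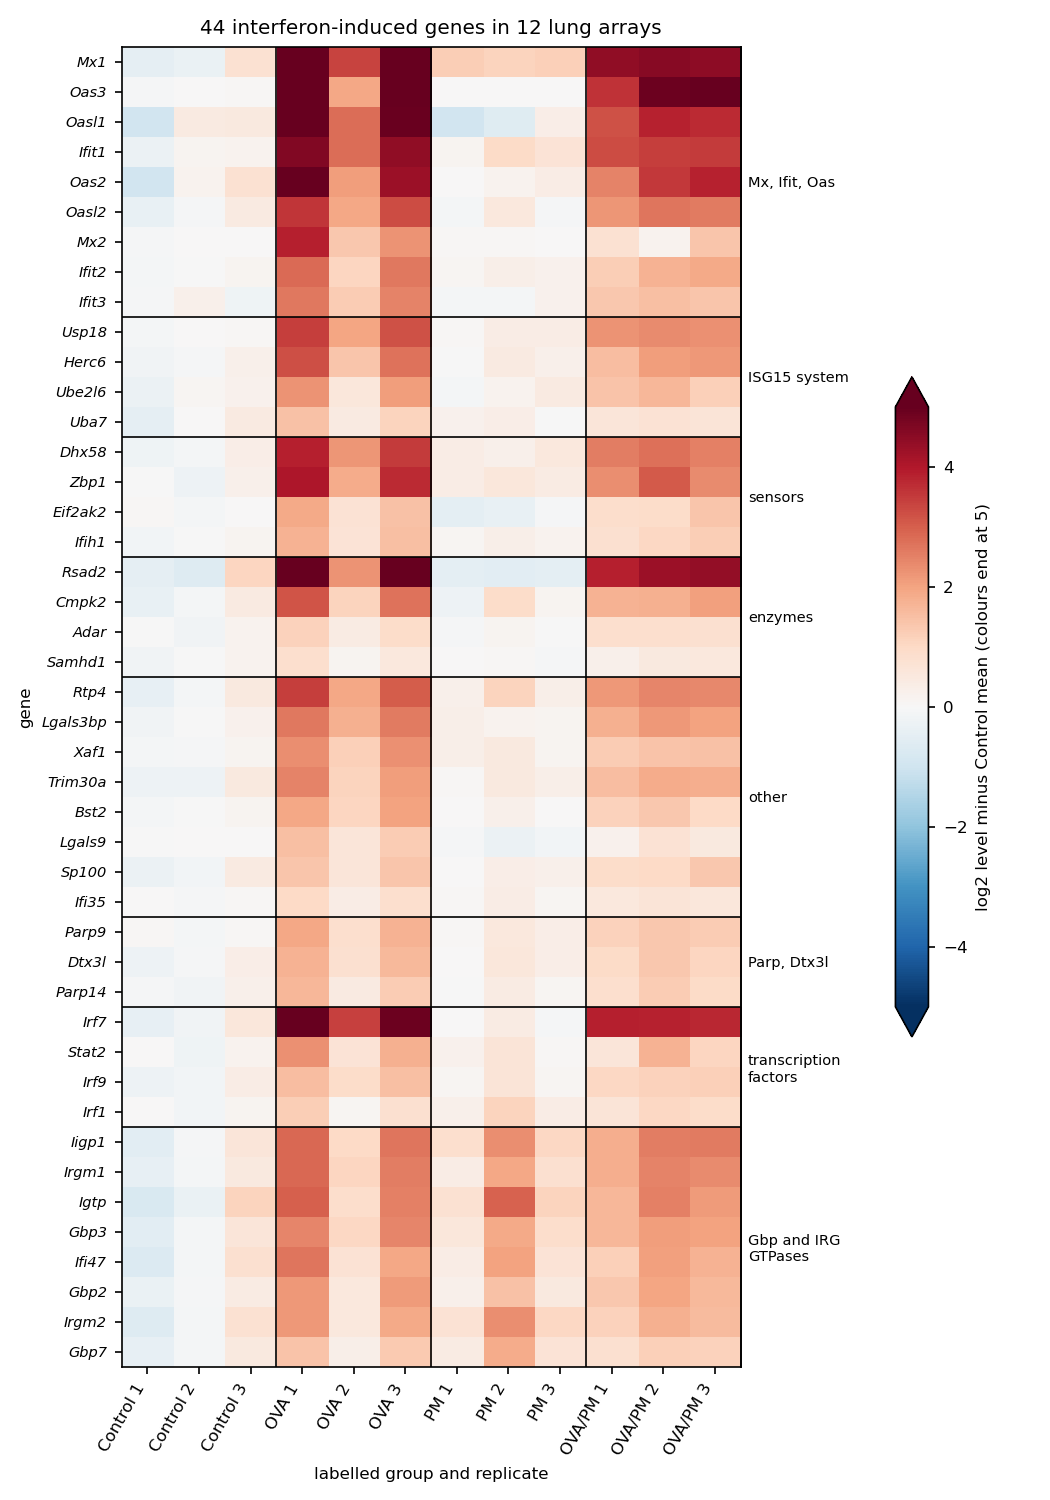
Log2 level of 44 interferon-induced genes in 12 arrays, each minus the Control mean of its probe set, with rows grouped by role and columns by labelled group and replicate. The groups labelled OVA and OVA/PM have means above 0 in all 44 rows, those labelled PM are red mainly in the Gbp and IRG rows at the bottom, and OVA replicate 2 is the palest of its group in all 44 rows. Colours end at a difference of 5.

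Of the 44 genes, 42 were tested in OVA/PM against Control. Ube2l6 and Mx2 were not, and Mx1, Oas2, Oas3 and Oasl1 reached the test only through the OVA/PM arrays, so that a difference was built into their passing. All 3 OVA/PM arrays lay above all 3 Control arrays for 44 of 44 genes, beside 19.3% of all genes. The 3 genes tested that did not pass were Samhd1, Uba7 and Lgals9, at differences of 0.42, 0.66 and 0.48 (adjusted p = 0.0624, 0.0798 and 0.0514 from limma). In fits that each left out 1 array, 33 of the 39 calls were made every time.

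The calls in the arrays labelled OVA were less steady. All 3 arrays lay above Control for 38 genes, beside 19.9% of all genes, yet 2 of the 33 calls, Irf7 and Lgals3bp, were made in all 6 fits without 1 array. Without Control replicate 1, 2 or 3 the count was 6, 3 and 19, and without replicate 1, 2 or 3 of the arrays labelled OVA it was 8, 44 and 2. Replicate 2 was the lowest of the 3 arrays labelled OVA for 44 of 44 genes, and the median SD over the genes was 0.809 in that group against 0.217 in OVA/PM, 0.225 in those labelled PM and 0.277 in Control. Mx1, Mx2, Oasl1 and Oas2 were tested there only through the arrays labelled OVA.

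Of the 9 antiviral genes, 8 rose in OVA/PM and 8 in the arrays labelled OVA, and in each comparison 4 of the 8 were tested only through the group where they were high. Their median difference from Control was 3.29 in OVA/PM and 3.86 in the arrays labelled OVA. For Mx1, Mx2, Oas3 and Oasl1 the Control arrays all lay under the filter level, and with these 4 at their bounds the medians were 1.88 and 2.88, where those of the sensors were 1.82 and 2.28 and those of the GTPases 1.79 and 1.88. Mx1 was at 3.18, 3.28 and 4.37 in Control, 9.91, 6.99 and 9.41 under the OVA label, 4.83, 4.74 and 4.81 under the PM label and 8.04, 8.16 and 8.10 in OVA/PM. All 6 arrays of the groups with OVA in their name lay above all 6 others, and the arrays labelled PM lay above Control but under the filter level. Mx1 was at least 9.0-fold higher in OVA/PM than in Control (log2 difference 4.49, n = 3 per group, SE 0.313, adjusted p = 0.000658 from limma) and at least 14.3-fold higher in the arrays labelled OVA (5.16, SE 0.795, adjusted p = 0.0161 from limma). The latter call was lost without Control replicate 1 or 2 or OVA replicate 3 (highest adjusted p = 0.0701 from limma).

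Oas3, an enzyme that makes the short oligoadenylates that activate RNase L, was at 2.15, 2.22 and 2.27 in Control, 8.06, 4.16 and 8.16 under the OVA label, 2.24, 2.23 and 2.24 under the PM label and 5.81, 7.12 and 7.28 in OVA/PM. The 6 Control and PM arrays formed 1 narrow band, and OVA replicate 2 alone of the other 6 stayed under the filter level. In OVA/PM Oas3 was at least 3.51-fold higher than in Control (log2 difference 4.53, SE 0.377, adjusted p = 0.00113 from limma), and the arrays labelled OVA, of which 2 of 3 measured it, were not tested. Oasl1, an Oas-like protein that restrains Irf7 translation, was at 2.27, 3.68 and 3.73 in Control, 9.26, 6.01 and 8.15 under the OVA label, 2.26, 2.60 and 3.56 under the PM label and 6.40, 7.06 and 6.97 in OVA/PM. Control and the arrays labelled PM overlapped under the filter level, and the other 6 arrays lay above them.

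Ifit1 rose by 3.41 in OVA/PM (10.6-fold, SE 0.152, adjusted p = 0.000156 from limma), with arrays at 10.81, 10.99 and 11.06 against 7.25, 7.68 and 7.72 in Control. Oas2, Oasl2, Ifit2 and Ifit3 rose there too, by between 1.42 (Ifit3) and 3.29 (Oas2). Mx2 departed from this pattern. It was at 3.95, 4.01 and 4.0 in Control, 7.88, 5.32 and 6.25 under the OVA label, 4.05, 4.06 and 4.02 under the PM label and 4.75, 4.17 and 5.36 in OVA/PM, so that OVA/PM replicate 2 lay close to Control. Mx2 rose in the arrays labelled OVA (at least 2.93-fold, adjusted p = 0.0401 from limma), a call lost without any of the 3 Control arrays or OVA replicate 3 (highest adjusted p = 0.114 from limma).

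**Figure D2:**
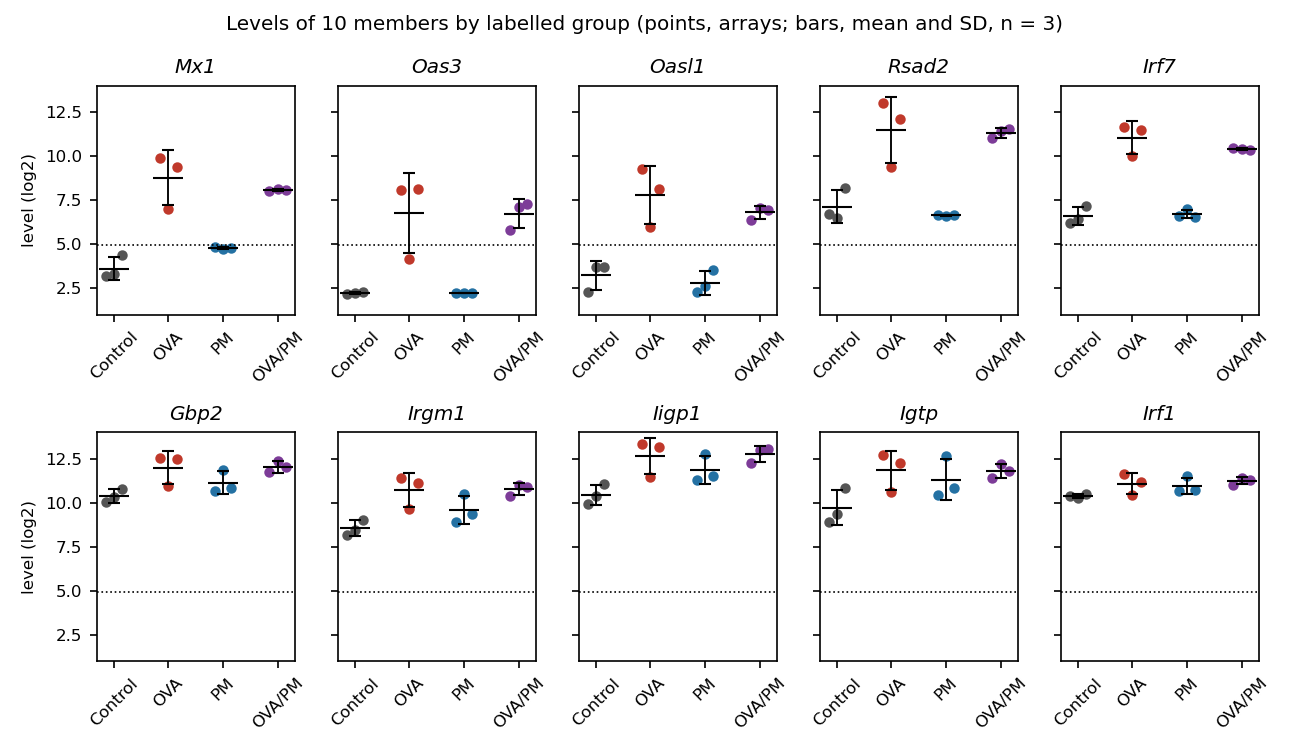
Log2 level of 10 interferon-induced genes by labelled group, with a point for each array, bars for the mean and SD (n = 3) and a dotted line at the filter level of 4.93. In Mx1, Oas3, Oasl1, Rsad2 and Irf7 the arrays labelled PM sit with or near Control, while in Gbp2, Irgm1, Iigp1, Igtp and Irf1 the highest array labelled PM reaches into the range of those labelled OVA.

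The Gbp and IRG GTPases had a median difference from Control of 1.79 in OVA/PM, 1.88 under the OVA label and 1.08 under the PM label. In OVA/PM 8 of 8 rose, by 1.04 (Gbp7) to 2.32 (Iigp1). Iigp1, an IRG protein that attacks the vacuoles of chlamydia and toxoplasma, was at 9.93, 10.40 and 11.06 in Control, 13.33, 11.47 and 13.15 under the OVA label, 11.32, 12.79 and 11.51 under the PM label and 12.28, 13.01 and 13.08 in OVA/PM. Each array labelled PM lay above the 3 Control arrays and overlapped the other groups. Iigp1 was 5.0-fold higher in OVA/PM than in Control (log2 difference 2.32, n = 3 per group, SE 0.336, adjusted p = 0.00681 from limma).

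Irgm1, an IRG protein that regulates the others and autophagy, was at 8.15, 8.47 and 9.05 in Control, 11.43, 9.65 and 11.10 under the OVA label, 8.92, 10.49 and 9.34 under the PM label and 10.38, 11.03 and 10.90 in OVA/PM. It rose 4.65-fold in OVA/PM (log2 difference 2.22, SE 0.270, adjusted p = 0.00386 from limma). PM replicate 1 lay inside the Control range and PM replicate 2 above OVA replicate 2. Gbp2, a guanylate-binding protein, was at 10.04, 10.32 and 10.81 in Control, 12.57, 10.93 and 12.52 under the OVA label, 10.65, 11.87 and 10.87 under the PM label and 11.73, 12.38 and 12.02 in OVA/PM, and rose 3.15-fold in OVA/PM (adjusted p = 0.00723 from limma). Its arrays labelled OVA and labelled PM overlapped.

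Calls for the GTPases depended on single arrays. In OVA/PM against Control, Gbp7, Igtp, Irgm2 and Ifi47 lost theirs without any 1 of the arrays other than Control replicate 3 (highest adjusted p = 0.103 from limma). They also lost them with no filter, Gbp7 and Irgm2 in 1 fit of all 4 groups, and Gbp7 at its second probe set. The other 4 members kept theirs in all of these. In the arrays labelled OVA 3 of 8 passed, Gbp3, Irgm1 and Iigp1, and 0 passed without Control replicate 1 or 2 or OVA replicate 1 or 3, while 8 passed without OVA replicate 2 and 1 without Control replicate 3. All 3 calls were also lost with no filter and with the replicate number as a block, and that of Iigp1 at its second probe set.

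In the arrays labelled PM, 0 of 8 GTPases passed against Control by limma or SAM, although their differences ran from 0.74 (Gbp2) to 1.60 (Igtp). An unadjusted p under 0.05 was reached by 3 of them, beside 1814 of 22276 probe sets tested. For Iigp1 the difference was 1.41 (95% interval 0.30 to 2.51, adjusted p = 0.521 from limma). Igtp, another IRG protein, was at 8.94, 9.38 and 10.83 in Control, 12.70, 10.61 and 12.25 under the OVA label, 10.47, 12.65 and 10.82 under the PM label and 11.39, 12.23 and 11.83 in OVA/PM. PM replicates 1 and 3 lay under the highest Control array, and PM replicate 2 lay above all OVA/PM arrays. Over all 44 genes the arrays labelled PM lay wholly above Control for 9, beside 6.41% of all genes, and Iigp1 was the 1 GTPase among them.

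The spread behind these values was shared by the GTPases, and the order of the arrays in large part by the whole list. PM replicate 2 was the highest and PM replicate 1 the lowest of its group for 8 of 8 members, Control replicate 3 was the highest and Control replicate 1 the lowest for 8 of 8, and OVA replicate 1 was the highest and OVA replicate 2 the lowest for 8 of 8. Over all 44 genes, Control replicate 3 was the highest of its group for 39 and OVA replicate 1 for 41. OVA replicate 2 was the lowest for 44, and PM replicate 2 was the highest for 32. Among the 9 antiviral members, PM replicate 2 was the highest of its group for 4. The median SD in the arrays labelled PM was 0.806 for the GTPases and 0.161 for the antiviral members.

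The 2 families were therefore set side by side within each array, as the mean shift of their members from the Control mean. The antiviral shift was 4.55, 2.07 and 4.0 under the OVA label, 0.05, 0.27 and 0.34 under the PM label, and 2.50, 2.93 and 3.11 in OVA/PM. The GTPase shift was 2.45, 0.77 and 2.18, then 0.54, 2.09 and 0.84, and then 1.43, 2.08 and 1.90, in the same order. In each array labelled OVA and each OVA/PM array the antiviral family had moved further, and in each array labelled PM the GTPases had. The antiviral minus the GTPase shift was 1.74 ± 0.41 (SD, n = 3) in the arrays labelled OVA, -0.94 ± 0.76 in those labelled PM and 1.04 ± 0.18 in OVA/PM. It was -0.50 in the arrays labelled PM without replicate 2. The antiviral shifts include Mx1, Mx2, Oas3 and Oasl1, which lay under the filter level in all Control and PM arrays. With every value under that level set to it, an alternative chosen after seeing the data, the 3 values were 1.0, -1.05 and 0.312. With an offset of 16 added to the linear values those of the arrays labelled OVA and OVA/PM were 1.13 and 0.470. These shifts are a description and carry no test, since the members were chosen with earlier results known.

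**Figure D3:**
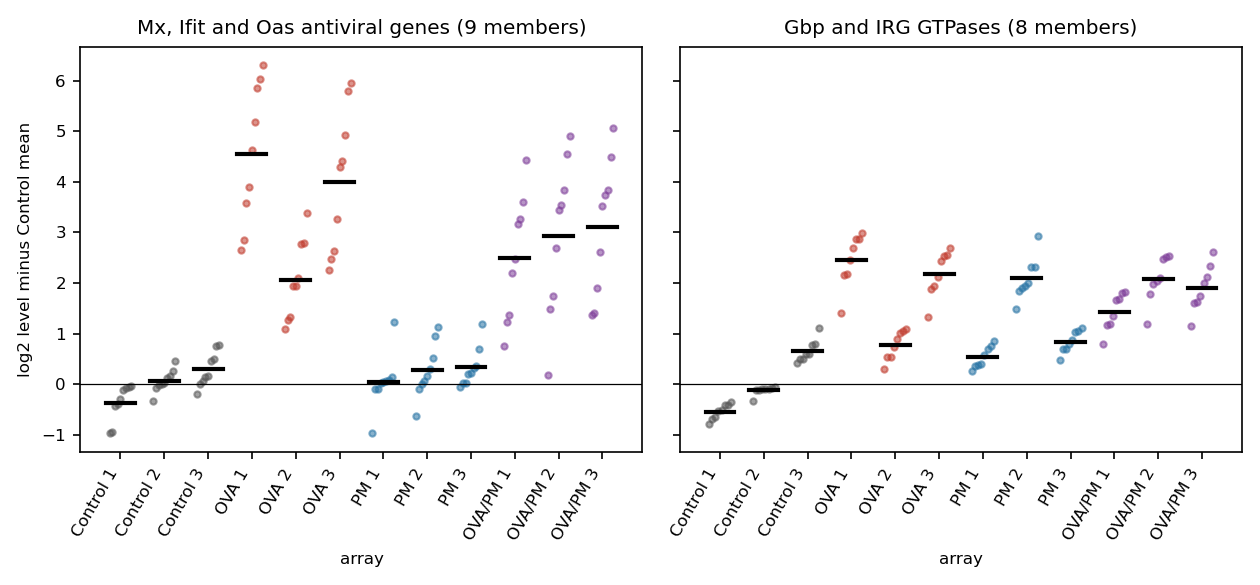
Log2 level minus the Control mean of the probe set for 9 Mx, Ifit and Oas genes (left) and 8 Gbp and IRG genes (right) in each array, with a point for each gene and a bar for the mean. On the left the arrays labelled PM have means of 0.05 to 0.34, while on the right they have means of 0.54 to 2.09, with PM replicate 2 level with OVA/PM replicate 2.

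The arrays labelled OVA were also tested directly against those labelled PM, on the same arrays as the shifts above. The time since the agent differs between these groups as well. Of 44 genes 17 were higher and 0 lower, beside 4.23% and 1.90% of all genes tested, and the arrays did not overlap for 34, beside 13.7% of all genes. Among the antiviral genes 6 of 9 passed and 9 of 9 did not overlap, with differences of 1.98 (Ifit2) to 5.0 (Oasl1). Of these, Mx1, Mx2 and Oasl1 were tested only through the arrays labelled OVA, so that a difference was built in for 2 of the 6 that passed, Mx1 and Oasl1. Among the GTPases 0 of 8 passed by limma or SAM and 0 had an unadjusted p under 0.05, beside 6934 of 22434 probe sets tested. The arrays overlapped for all 8 GTPases, with differences of 0.03 (Gbp7) to 1.14 (Irgm1). Those of Gbp7 and Irgm2 turned to -0.17 and -0.15 without OVA replicate 1. Oasl1 was at least 7.34-fold higher in the arrays labelled OVA (adjusted p = 0.0396 from limma), with all 3 arrays labelled PM under the filter level.

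For the GTPases the intervals were wide. The difference of Irgm1 was 1.14 with a 95% interval of -0.28 to 2.56 (adjusted p = 0.232 from limma), and that of Gbp2 was 0.88 with an interval of -0.42 to 2.17. A change as large as the median of the antiviral genes, 3.34, or 2.8 with genes at their bounds, lay outside the interval of each of the 8 GTPases, and a difference of 1 lay inside it for all 8. The 17 calls rest on few arrays: without OVA replicate 2 there were 35, none of them a GTPase, and without any other 1 of the 6 arrays there were 0, while 30 passed by SAM. Without OVA replicate 2, 4 of the 8 GTPases had an unadjusted p under 0.05, beside 7757 of 22600 probe sets tested.

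**Figure D4:**
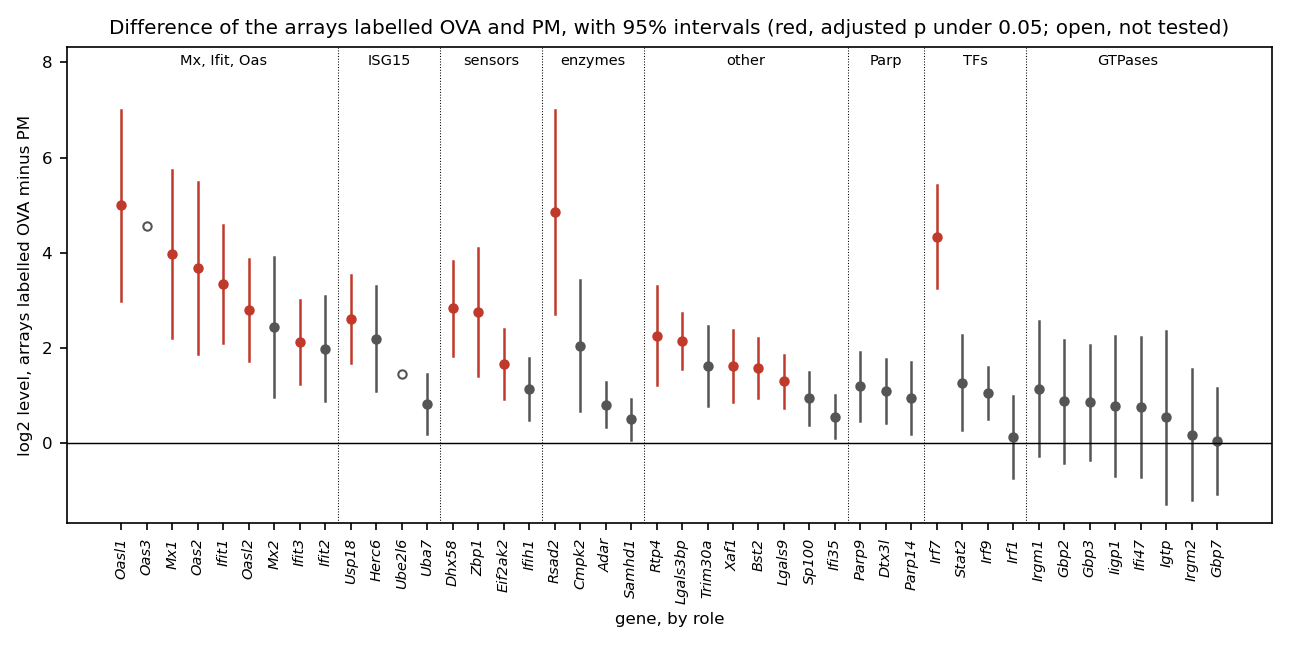
Difference of the mean log2 level between the arrays labelled OVA and those labelled PM for 44 genes by role (n = 3 per group), with 95% intervals from limma, in red where the adjusted p was under 0.05 and open where the gene was not tested. All 8 intervals of the GTPases at the right cross 0, while those of the tested antiviral genes at the left lie above it.

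OVA/PM was also set against each of its parts. Against the arrays labelled PM, 30 of 44 genes were higher and 0 lower, beside 9.13% and 6.72% of all genes tested, and the arrays did not overlap for 34, beside 14.8% of all genes. Here 8 of the 9 antiviral genes passed, in each of the 6 fits without 1 array as well, of which Mx1, Oas3 and Oasl1 were tested only through the OVA/PM arrays, where they were high. Of the 8 GTPases 0 passed by limma and 1 was called by SAM. An unadjusted p under 0.05 was reached by 2 of the 8, beside 6614 of 22457 probe sets tested. Without PM replicate 2, 4 GTPases passed. Against the arrays labelled OVA 0 of 44 passed by limma or SAM, beside 0.159% of all genes. An unadjusted p under 0.05 was reached by 2, Mx2 and Lgals9, both lower in OVA/PM, beside 1965 of 22409 probe sets tested. No gene had all its OVA/PM arrays below those labelled OVA, beside 5.05% of all genes. The median difference was -0.57 for the antiviral genes and 0.01 for the GTPases.

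A fit of all 4 groups tested whether the joint exposure departed from the sum of the single ones. By limma 0 of 44 genes passed, beside 0.0350% of all genes, and SAM was not run on this contrast. Mx2 and Xaf1 had an unadjusted p under 0.05, both below the sum, beside 1415 of 22718 probe sets tested. The median departure was -0.71 on the log2 scale against -0.0044 for all genes. Without OVA replicate 2 the departure of Usp18 passed, at -1.31 (adjusted p = 0.0384 from limma).

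Promoters of both families were read from RefSeq windows of GRCm38.p6, from 250 bases before to 50 after the gene start, which held 38 of the 48 listed genes. The core of the interferon-stimulated response element was searched as GAAANNGAAA and the gamma-activated site as TTCNNNGAA, on both strands, and matches may overlap. The first was found in 18 of 38 listed genes (47.4%), beside 3.99% of all 27025 promoters. It was in 3 of 6 antiviral promoters and 7 of 8 GTPase promoters. These are not quite the members whose levels are given: Mx1, Mx2, Oas2 and Iigp1 had no window, and Tgtp1, not measured, is counted among the GTPase promoters. The second was found in 11 of 38 (28.9%), beside 9.55% of all promoters, in 1 of 6 antiviral and 4 of 8 GTPase promoters. A match is a run of letters and does not show binding. Oas3 and Irgm1 are printed as the members of each family that, among those with a match, differed most between OVA/PM and Control. Each is given as the 250 bases before its start, 5′ to 3′ on its own strand, with the matches in capitals.
Oas3 (chr5:120777660-120777909, minus strand): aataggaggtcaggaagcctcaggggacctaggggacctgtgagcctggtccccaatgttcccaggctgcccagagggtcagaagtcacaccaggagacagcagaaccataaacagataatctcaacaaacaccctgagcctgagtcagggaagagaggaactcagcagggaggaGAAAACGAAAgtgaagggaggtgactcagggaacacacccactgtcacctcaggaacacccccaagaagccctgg
Irgm1 (chr11:48871421-48871670, minus strand): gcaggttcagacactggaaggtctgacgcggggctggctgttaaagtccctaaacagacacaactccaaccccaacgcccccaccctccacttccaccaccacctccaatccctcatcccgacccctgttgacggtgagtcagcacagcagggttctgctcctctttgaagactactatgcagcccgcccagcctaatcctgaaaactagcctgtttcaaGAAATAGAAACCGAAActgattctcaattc
Oas3 holds 1 match of the response element core and Irgm1 holds overlapping ones, and neither holds the gamma-activated site.

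Shorter stretches show how the matches lie in other members. In Ifit1, Ifit3 and Gbp2 the response element core reads on the opposite strand, as TTTC, any pair of bases, TTTC. In Igtp and Irgm2, neighbours on chromosome 11, a gamma-activated site and a response element core stand side by side. Capitals mark the matches again, and flanks are in lower case.
Ifit1 (chr19:34640777-34640802, plus strand): ggcttcagTTTCACTTTCcagtctca
Ifit1 (chr19:34640796-34640821, plus strand): agtctcagTTTCAGTTTCtcactgct
Ifit3 (chr19:34583365-34583390, plus strand): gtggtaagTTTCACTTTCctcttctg
Gbp2 (chr3:142620596-142620621, plus strand): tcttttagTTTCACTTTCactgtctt
Igtp (chr11:58199503-58199539, plus strand): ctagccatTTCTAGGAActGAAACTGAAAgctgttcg
Irgm2 (chr11:58214894-58214930, plus strand): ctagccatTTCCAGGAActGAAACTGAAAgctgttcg

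Among the 4 transcription factors of the list, Irf7 and Irf1 differed in a like manner, but Irf1 was picked after its values were seen. Between the arrays labelled OVA and labelled PM 1 of the 4, Irf7, passed by limma. Irf7, which amplifies type I interferon production, was at 6.19, 6.41 and 7.16 in Control, 11.68, 10.0 and 11.50 under the OVA label, 6.61, 7.0 and 6.55 under the PM label and 10.49, 10.44 and 10.35 in OVA/PM. The arrays labelled PM overlapped Control, and the 6 others all lay above them. Irf7 rose 14.3-fold in OVA/PM (log2 difference 3.84, SE 0.247, adjusted p = 0.000502 from limma) and was 20.2-fold higher in the arrays labelled OVA than in those labelled PM (4.34, SE 0.447, adjusted p = 0.0226 from limma). Irf1, which interferon gamma induces through a gamma-activated site, was at 10.41, 10.25 and 10.51 in Control, 11.64, 10.47 and 11.18 under the OVA label, 10.64, 11.50 and 10.76 under the PM label and 11.04, 11.42 and 11.31 in OVA/PM. It rose by 0.87 in OVA/PM (adjusted p = 0.00801 from limma), and the arrays labelled OVA and labelled PM overlapped, with a difference of 0.13 (95% interval -0.73 to 0.99) that turned to -0.14 without OVA replicate 1.

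Stat2 and Irf9, partners in the factor that binds the response element, rose by 1.14 and 1.12 in OVA/PM (adjusted p = 0.0334 and 0.00802 from limma). Stat2 was at 7.85, 7.64 and 8.02 in Control, 10.11, 8.52 and 9.62 under the OVA label, 8.05, 8.50 and 7.90 under the PM label and 8.45, 9.56 and 8.92 in OVA/PM. PM replicate 2 lay above OVA/PM replicate 1. The call of Stat2 was lost with the replicate number as a block, with no filter, and without any Control array or OVA/PM replicate 3 (highest adjusted p = 0.110 from limma). Its difference between the arrays labelled OVA and those labelled PM was 1.27 (adjusted p = 0.102 from limma).

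Genes of the ISG15 system attach or remove the ubiquitin-like protein ISG15. Usp18, which removes it and blunts the type I receptor, was at 8.58, 8.67 and 8.73 in Control, 12.12, 10.65 and 11.86 under the OVA label, 8.73, 9.03 and 9.05 under the PM label and 10.92, 11.01 and 10.95 in OVA/PM. The OVA/PM arrays lay close together, above all Control and PM arrays. Usp18 rose 4.93-fold (log2 difference 2.30, SE 0.0870, adjusted p = 7.92e-05 from limma) and was 6.10-fold higher in the arrays labelled OVA than in those labelled PM (adjusted p = 0.0352 from limma). Herc6, the ligase that attaches ISG15 in mice, rose by 1.93 (3.81-fold, adjusted p = 0.00231 from limma), with OVA/PM arrays at 9.20, 9.74 and 9.84 against 7.49, 7.60 and 7.91 in Control. Its difference between the arrays labelled OVA and labelled PM was 2.19 (adjusted p = 0.0503 from limma). Ube2l6 was not tested in any comparison. Uba7 did not pass against Control in OVA/PM or under the OVA label (adjusted p = 0.0798 and 0.0764 from limma). Its differences were 0.66 and 1.0, and the arrays of both groups all lay above those of Control.

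Sensors of foreign nucleic acid rose as 4 of 4 in OVA/PM and 4 of 4 in the arrays labelled OVA. Dhx58, a regulator of RNA sensing, was at 5.84, 5.96 and 6.41 in Control, 9.95, 8.29 and 9.58 under the OVA label, 6.43, 6.32 and 6.58 under the PM label and 8.62, 8.82 and 8.59 in OVA/PM. Zbp1, a sensor that can start cell death, was at 6.56, 6.32 and 6.84 in Control, 10.60, 8.41 and 10.30 under the OVA label, 6.93, 7.14 and 6.97 under the PM label and 8.88, 9.64 and 8.93 in OVA/PM. In both, the groups with OVA in their name did not overlap the other groups. The rise in OVA/PM was 6.08-fold for Dhx58 (adjusted p = 0.000502 from limma) and 5.97-fold for Zbp1 (adjusted p = 0.00162 from limma). Eif2ak2, the kinase that halts translation on double-stranded RNA, and Ifih1, a sensor of long RNA, rose by 1.07 and 1.02. At its second probe set Eif2ak2 differed by 0.565 and did not pass (adjusted p = 0.0593 from limma).

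Among enzymes, Rsad2, which makes a chain-ending nucleotide that stops viral polymerases, was at 6.69, 6.50 and 8.21 in Control, 13.02, 9.36 and 12.10 under the OVA label, 6.64, 6.63 and 6.65 under the PM label and 11.02, 11.42 and 11.54 in OVA/PM. The arrays labelled PM lay close together and Control replicate 3 stood above the other Control arrays. Rsad2 rose 18.3-fold in OVA/PM (log2 difference 4.19, SE 0.452, adjusted p = 0.00260 from limma), and was 28.9-fold higher in the arrays labelled OVA than in those labelled PM (4.85, SE 0.882, adjusted p = 0.0435 from limma). Cmpk2, its neighbour and a nucleotide kinase, rose by 1.85 in OVA/PM (adjusted p = 0.00374 from limma). Adar, which edits RNA, rose by 0.83, and Samhd1, which degrades nucleotides, was at 0.42 and did not pass.

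Parp9, Dtx3l and Parp14 act in ADP-ribosylation, and 3 of 3 rose in OVA/PM. Parp9 rose by 1.26 (adjusted p = 0.000946 from limma), with arrays at 10.86, 11.07 and 10.97 against 9.77, 9.61 and 9.75. Dtx3l, the ligase that partners Parp9, rose by 1.13 (adjusted p = 0.00855 from limma). Between the arrays labelled OVA and labelled PM, 0 of 3 passed by limma, with 3 at an unadjusted p under 0.05, beside 6934 of 22434 probe sets tested.

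Of the 8 remaining genes 7 rose in OVA/PM and 8 in the arrays labelled OVA. Rtp4, a chaperone of receptors, was at 9.13, 9.45 and 10.02 in Control, 12.98, 11.46 and 12.58 under the OVA label, 9.80, 10.63 and 9.82 under the PM label and 11.69, 11.96 and 11.92 in OVA/PM, and rose 5.0-fold in OVA/PM (adjusted p = 0.00187 from limma). Its arrays labelled PM overlapped Control. Lgals3bp, a secreted galectin ligand, was at 10.72, 10.90 and 11.11 in Control, 13.55, 12.67 and 13.52 under the OVA label, 11.20, 11.09 and 11.04 under the PM label and 12.68, 13.08 and 12.90 in OVA/PM, and rose 3.94-fold in OVA/PM (adjusted p = 0.000791 from limma). It was 4.40-fold higher in the arrays labelled OVA than in those labelled PM (adjusted p = 0.0276 from limma). Bst2, which tethers budding virus, Xaf1, which promotes cell death, and Trim30a, a ubiquitin ligase, rose in OVA/PM by 1.17, 1.39 and 1.73.

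A further 31 probe sets read 20 of the 44 genes a second time. In OVA/PM against Control 22 of those tested belonged to a called gene, and 22 moved the same way and 18 passed. In the arrays labelled OVA against those labelled PM 6 did, of which 6 moved the same way and 4 passed. Genes of the Oas, Ifit, Gbp and IRG families resemble each other, and binding of 1 member's RNA to another's probes was not tested.

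Genes upstream of the list were measured less well. Of 20 interferon ligand genes 10 were measured and 1 was tested, and 0 passed in any comparison by limma. Ifng lay between 2.35 and 2.79 and Ifnb1 between 2.05 and 2.18 over the 12 arrays, under the filter level, so that a difference was not detectable. Of 6 receptor genes, Ifngr2, a chain of the interferon gamma receptor, rose by 0.95 in OVA/PM and Ifngr1, its partner, fell by 0.55 (adjusted p = 0.0173 and 0.0153 from limma).

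Of 14 signalling and feedback genes measured, 7 rose in OVA/PM, 4 rose and 1 fell in the arrays labelled OVA, and 0 passed in those labelled PM. Nlrc5, which drives class I antigen presentation, was at 6.59, 7.29 and 8.98 in Control, 10.42, 8.36 and 10.0 under the OVA label, 8.36, 9.82 and 8.46 under the PM label and 9.63, 10.20 and 9.80 in OVA/PM, and rose by 2.26 in OVA/PM (adjusted p = 0.0386 from limma). PM replicate 2 was again the highest of its group and Control replicate 3 the highest of its own. Irf5, a factor of inflammatory macrophages, rose by 1.34 (adjusted p = 0.0137 from limma). Of 14 further sensor and adaptor genes 4 rose in OVA/PM, among them Ikbke, a kinase that activates Irf3 and Irf7, by 2.03, and Tlr7, a receptor for single-stranded RNA, by 1.85 (adjusted p = 0.00127 and 0.00762 from limma).

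Of 50 other interferon-induced genes measured, 28 rose in OVA/PM, 21 under the OVA label and 0 under the PM label, and 0 fell in any of the 3. Against the arrays labelled PM, 10 were higher in those labelled OVA. Cxcl9 and Cxcl10, chemokines that draw T cells through CXCR3, were at least 40.7-fold and 51.8-fold higher in OVA/PM than in Control (adjusted p = 0.000597 and 0.000224 from limma), and both were tested only through the OVA/PM arrays. Cxcl9 was at 2.31, 3.25 and 3.39 in Control, 10.88, 7.78 and 10.68 under the OVA label, 4.65, 4.73 and 6.41 under the PM label and 9.27, 10.95 and 10.60 in OVA/PM. For both, each array labelled PM lay above the 3 Control arrays and below the 6 others, and neither was tested between the arrays labelled PM and Control. Ciita, the regulator of class II antigen presentation, Gbp6 and Tap1, an antigen transporter, were picked after their values were seen: they differed by 1.35, 1.62 and 1.16 between the arrays labelled PM and Control (adjusted p = 0.584, 0.679 and 0.572 from limma).

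Each leukocyte marker list had genes that rose in OVA/PM and in the arrays labelled OVA, the groups in which the interferon-induced genes rose. In the arrays labelled PM 0 of these markers passed. Of 16 monocyte and macrophage markers 11 rose in OVA/PM, 9 under the OVA label and 0 under the PM label. Their mean level was 10.8 to 11.4, 10.6 to 11.4 and 9.55 to 10.2 in these groups and 9.15 to 9.61 in Control. Of 12 T cell markers 7, 8 and 0 rose. Of 8 B and plasma cell markers 5, 2 and 0 rose, and of 11 neutrophil markers 3, 2 and 0. Natural killer cell markers had a mean level of 5.28 to 5.66 under the PM label, above the 4.33 to 5.06 of Control. It was 5.33 to 5.74 under the OVA label and 5.54 to 5.86 in OVA/PM. Between the arrays labelled OVA and PM 1 passed, Gzma, with a difference of -0.96 (adjusted p = 0.0355 from limma). Of these 10 markers 0 passed in the arrays labelled PM, 2 in those labelled OVA and 4 in OVA/PM, and Klre1, Eomes and Klra8 lay under the filter level throughout. The part of these cells in the levels of the list was not tested.

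Neutrophil markers, and also monocyte and macrophage markers, ordered the arrays as the GTPases did in 3 of the 4 groups. The whole list did so in all 4. The mean neutrophil shift was -1.07, -0.38 and 1.45 in Control, 1.73, -0.76 and 0.28 under the OVA label, and -0.36, 1.39 and 0.56 in OVA/PM, where the GTPase shift was lowest and highest in the same arrays. It was -0.86, -1.49 and -1.57 under the PM label, where replicate 2 had the highest GTPase levels. The monocyte and macrophage shift was -0.29, 0.12 and 0.17 in Control and 1.93, 1.15 and 1.86 under the OVA label. It was 0.33, 0.11 and 0.71 under the PM label and 1.40, 1.96 and 1.75 in OVA/PM. Of 10 plasmacytoid dendritic cell markers, which include Bst2 of the list, 4 rose and 1 fell in OVA/PM. The counts were 4 and 1 under the OVA label, and 0 passed under the PM label. Their mean shift was 0.85 under the OVA label, 0.18 under the PM label and 0.82 in OVA/PM. The markers Siglech, in all arrays but OVA replicate 1, and Lag3, in each array, were below the filter level. Endothelial markers fell as 7 of 8 in OVA/PM and 4 of 8 in the arrays labelled OVA. Of 10 striated muscle markers 5 fell in OVA/PM, with a mean shift of -2.36, -0.99 and -1.34 there. The part of these shifts in the results was not tested.

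**Figure D5:**
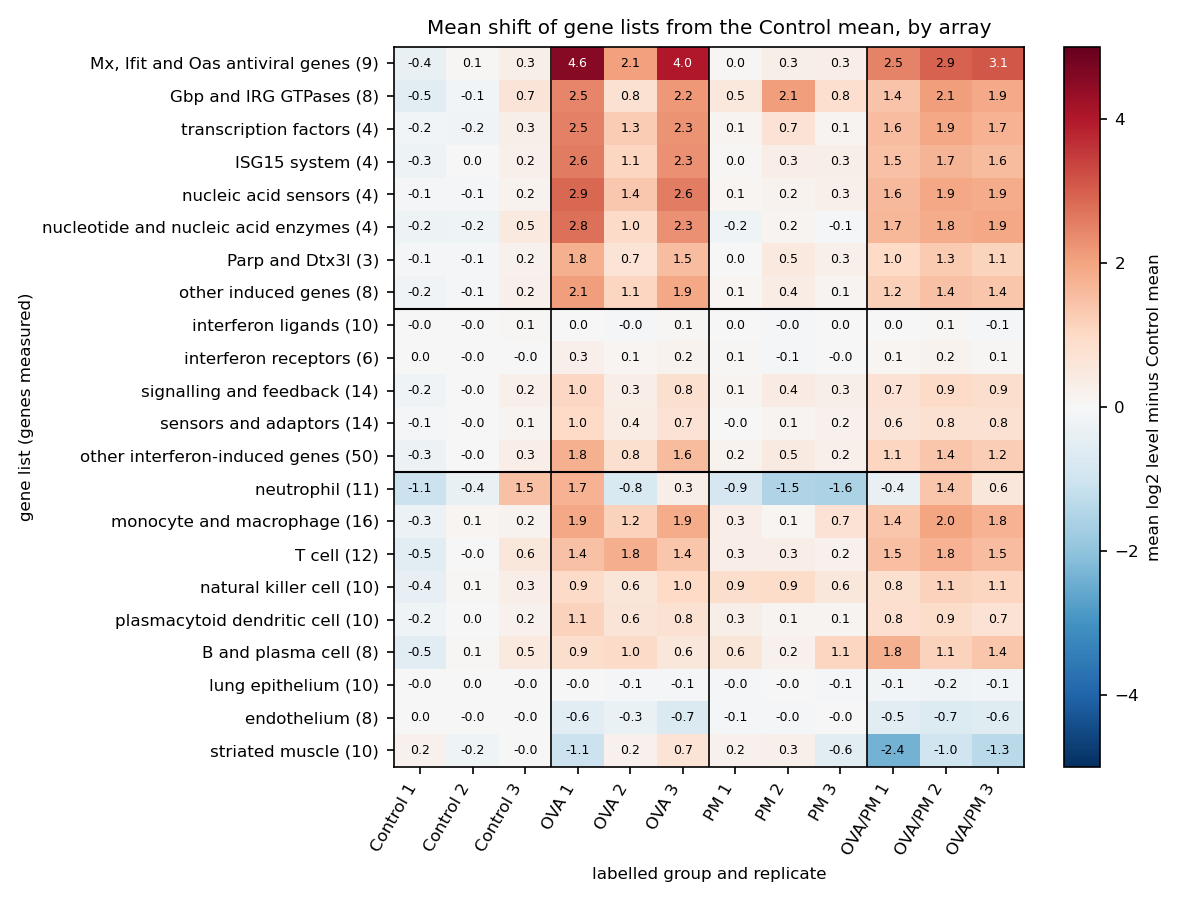
Mean log2 level minus the Control mean for 8 roles of the list (top), 5 further interferon gene lists (middle) and 9 cell type marker lists (bottom) in each of the 12 arrays, with the number of genes measured in brackets. The top block is red in the arrays labelled OVA and OVA/PM. The GTPase row alone among the roles exceeds 1 in an array labelled PM (2.1 in replicate 2). The rows of monocytes and macrophages, T cells and plasmacytoid dendritic cells rise mainly in the arrays labelled OVA and OVA/PM.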

How the data were processed

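Gene expression was measured in 12 Affymetrix mouse arrays, 3 in each of 4 groups. The authors deposited log2 values for 45101 probe sets, made with GCRMA, which subtracts a background modelled on probe composition, quantile-normalizes and combines the probes of a set. Per the labels' processing notes MAS5 was used too, and versions of neither are given. Groups came from the sample titles. Of the probe sets, 34958 carry 1 symbol in the platform annotation, 932 several and 9211 none.

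Each pair of groups was tested in R 4.3.3 with limma 3.58.1 (empirical Bayes, Benjamini-Hochberg adjustment over all probe sets tested, threshold 0.05), and the interaction in 1 fit of the 4 groups. The filter at 4.93 stands in for detection calls, which are not used here. The smallest p of an exact permutation test of 3 against 3 arrays is 0.1. Python 3.11.15 with pandas 2.3.3 and matplotlib 3.10.9 served for counts, motifs and plots, and the fits were tested on simulated data.

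Counts were repeated without a filter and with a stricter one (8.65, the 75th percentile), with a replicate block, after quantile normalization of the deposited values, after 16 was added to the linear values, with all 4 groups in 1 fit, SAM (20 relabelings, in code written here), a second probe set, and without each array. An alternative that set values under 4.93 to it was added after seeing the data. The members, roles, gene lists and markers were chosen with earlier results of these data known. Values in every array were given for the 2 members of a role that differed most between OVA/PM and Control, among those that passed, or between the arrays labelled OVA and PM, with some in part, and Ifit1, Mx2, Igtp and Irf1 were added after their values were seen. No 2 of the 66 pairs of arrays were identical. The labels give no source of replicates beyond animals.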

Additional observations from a re-analysis of the deposited data

Results flagged for a closer look

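Lgals9, which encodes galectin-9, was flagged because the 3 arrays labelled OVA lay above all 3 Control arrays and the 3 labelled PM lay below them. Its levels were 11.16, 11.18 and 11.18 in Control, 12.68, 11.79 and 12.44 under the OVA label, 11.10, 10.90 and 11.03 under the PM label and 11.40, 11.90 and 11.68 in OVA/PM. The arrays labelled OVA differed from Control by 1.13 (adjusted p = 0.0262 from limma) and those labelled PM by -0.17 (adjusted p = 0.654 from limma), so the second difference did not pass. The difference of the effects, which is that between the arrays labelled OVA and PM, was 1.30 (adjusted p = 0.0426 from limma), a call lost without any 1 of the arrays other than OVA replicate 2. The arrays are few, and it was 1 of 44 genes looked at in this way.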

How the results depend on the processing

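Under the alternatives run for these genes 0 differences that passed, before or after, changed sign, while 97 of 4055 values of differences that passed in neither did. Of these 42 were in OVA/PM against the arrays labelled OVA, 20 in the interaction, 20 in the arrays labelled PM against Control, 10 in those labelled OVA against PM and 5 in OVA/PM against PM. Counts of calls did not keep their size. In the arrays labelled OVA against Control, where 33 genes passed, 11 passed with no filter and 0 with the replicate number as a block, 2 to 44 passed without 1 array, and 28 to 42 under the other settings. Against the arrays labelled PM, where 17 passed, the count was 0 with no filter, 5 with the replicate block, 31 in 1 fit of all 4 groups, 30 by SAM and 0 to 35 without 1 array. OVA/PM differed from Control in 33 to 42 genes and from the arrays labelled PM in 24 to 33 under all settings. With the replicate block these counts were 38 and 28, and 0 for the arrays labelled PM against Control, OVA/PM against the arrays labelled OVA, and the interaction, which had 0 to 1 without 1 array. The numbers were not taken to pair the arrays, since of 18 pairs with the same number 3 had deviations correlated over 0.1, and 2 of 12 arrays correlated best with their own number.

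The antiviral minus the GTPase shift of the arrays labelled OVA moved from 1.74 to 1.13 with an offset of 16 and to 1.0 with values under the filter level set to it. That of OVA/PM moved from 1.04 to 0.470 and 0.312 with these, to 1.32 as a median over members, and to 0.860 to 1.14 without 1 array. Over the Gbp and Irgm genes alone the shifts were 1.88, -0.83 and 1.17 in the arrays labelled OVA, those labelled PM and OVA/PM. The cause of these moves was not tested.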
